A study of Mus musculus with 6 samples.

Results

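Visceral endoderm is the epithelium that covers the early mouse embryo and lines its yolk sac, and 10 genes of its secretory and uptake machinery were followed here in sorted ETV2::GFP+FLK1+CD41- cells. The genes were *Afp*, *Apoa1*, *Amn*, *Ttr*, *Apob*, *Apoe*, *Cubn*, *Hnf4a*, *Rbp4* and *Lrp2*. Members were taken as every probe set whose array annotation gave exactly 1 symbol, that symbol being in this list, which gave 72 of 77669 such probe sets and 10 of 16523 genes. RNA was measured on 6 arrays (Affymetrix GeneChip Mouse Exon 1.0 ST), 3 for E7.5 and 3 for E8.5, each made from the amplified RNA of 50 sorted cells. Values are deposited log2 signals per exon probe set, and the value of a gene is the median over its probe sets on each array.

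The cross was the same at both stages, an ICR mother and an ETV2::GFP father, so that both groups carried the same transgenic reporter, in which GFP reports transcription of *Etv2*, an ETS factor needed for blood and endothelium. FLK1 (the product of *Kdr*) is a receptor of mesoderm and of early endothelium, and cells with CD41 (encoded by *Itga2b*), which marks early blood cells, were left out. The labels give only the stage, whereas the paper places the E8.5 cells in the embryo proper (EP) and speaks of the E7.5 cells as extra-embryonic, so stage and site cannot be told apart. The cells were therefore sorted as mesodermal and endothelial progenitors, not as endoderm. *Etv2* measured 10.93 to 12.09 and *Kdr* 7.95 to 9.92 over the 6 arrays, and *Itga2b* measured 7.58 to 8.45. No detection calls accompany the values, so none of these levels, nor any level below, can be read as presence or absence of a transcript.

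Visceral endoderm works as the first liver and gut of the embryo. It takes up maternal proteins and lipids at its apical surface through large endocytic receptors, breaks them down or repackages them, and secretes lipoproteins and carrier proteins toward the embryo. In this tissue a network of nuclear and forkhead factors, with HNF4A among them, keeps the serum protein genes on. The comparison between stages asks whether the RNA of this program differed between ETV2::GFP+FLK1+CD41- cells of the earlier and the later stage.

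The promoters of *Apoa1* and *Rbp4* are shown because both genes encode secreted cargo and differed by several fold between replicate arrays of 1 stage, in *Apoa1* in 1 of its 2 probe sets. The windows run from 250 bases before to 50 bases after the annotated start and come from RefSeq, build GRCm38.p6, at chr9:46228380-46228679 on the plus strand for *Apoa1* and at chr19:38124762-38125061 on the minus strand for *Rbp4*. Capitals mark exact matches to TGTTTGC, a core sequence of forkhead (FOXA) factors, in *Apoa1* and to TATAAA, the TATA box, in *Rbp4*.
Apoa1: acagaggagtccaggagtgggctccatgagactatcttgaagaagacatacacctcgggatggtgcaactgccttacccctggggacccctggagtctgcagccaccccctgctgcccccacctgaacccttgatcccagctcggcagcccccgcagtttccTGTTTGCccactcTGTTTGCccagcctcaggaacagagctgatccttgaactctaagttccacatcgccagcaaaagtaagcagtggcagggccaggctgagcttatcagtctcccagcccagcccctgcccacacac
Rbp4: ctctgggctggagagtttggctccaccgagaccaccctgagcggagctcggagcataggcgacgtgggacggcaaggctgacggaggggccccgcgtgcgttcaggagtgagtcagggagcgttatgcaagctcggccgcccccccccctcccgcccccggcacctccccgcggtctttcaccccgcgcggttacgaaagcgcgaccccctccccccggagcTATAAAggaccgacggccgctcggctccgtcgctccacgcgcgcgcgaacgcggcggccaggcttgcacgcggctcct

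The *Apoa1* window held TGTTTGC at 88 and at 75 bases before the start, and these matches do not overlap. In the *Rbp4* window shown the TATAAA match began 28 bases before the start, and the window of its other listed start, chr19:38125272-38125571, held none of the motifs searched. Both motifs and CAAAGTCCA, a binding sequence of HNF4 factors, were searched on both strands of 32851 promoter windows of the same length. Windows of 9 of the 10 genes were listed, 13 in all. TGTTTGC stood in windows of 3 of these 9 genes (*Afp*, *Apoa1* and *Apob*) and in 5.07% of all windows. TATAAA stood in windows of 4 (*Afp*, *Apob*, *Apoe* and *Rbp4*) and in 13.6% of all windows. CAAAGTCCA stood in 0.475% of all windows and in no window of the 9 genes. A gene can have more than 1 window, and a match is only a string of letters, since the arrays carry no measurement of these windows.

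None of the 10 genes differed between the stages past the threshold. With limma, fitted over all 16523 genes with Benjamini-Hochberg adjustment, 0 of the 10 had an adjusted p under 0.05, against 18 of all genes (0.109%). Without adjustment 0 of the 10 were under 0.05 as well, against 7.8% of all genes. At E8.5 the mean was lower for 7 genes and higher for 3, with no difference over 2-fold, and the median log2 fold change (E8.5 minus E7.5) was -0.24 against 0.0035 over all genes. Adjusted p-values ran from 0.68 for *Apoe* to 0.96 for *Apob*. For 6 genes (*Amn*, *Apob*, *Apoe*, *Cubn*, *Hnf4a* and *Lrp2*) the 95% interval of the difference lay within 2-fold in either direction. The same held for 55.1% of all genes. For *Afp*, *Apoa1*, *Rbp4* and *Ttr* the interval reached past 2-fold in at least 1 direction. The 6 genes had 8 to 15 probe sets each and the others had 1 to 3. The part of this number in the intervals was not tested. *Apob*, *Cubn* and *Lrp2* also had mean levels below the median of all genes, and RMA compresses differences of dim probe sets. The paper calls the arrays biological triplicates and nothing used here says that they came from separate litters, so the p-values cover only the spread among these samples, and 3 arrays per stage limit the precision. As in any pool of cells, fewer cells of a type and less RNA per cell cannot be told apart.

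**Figure D1:**
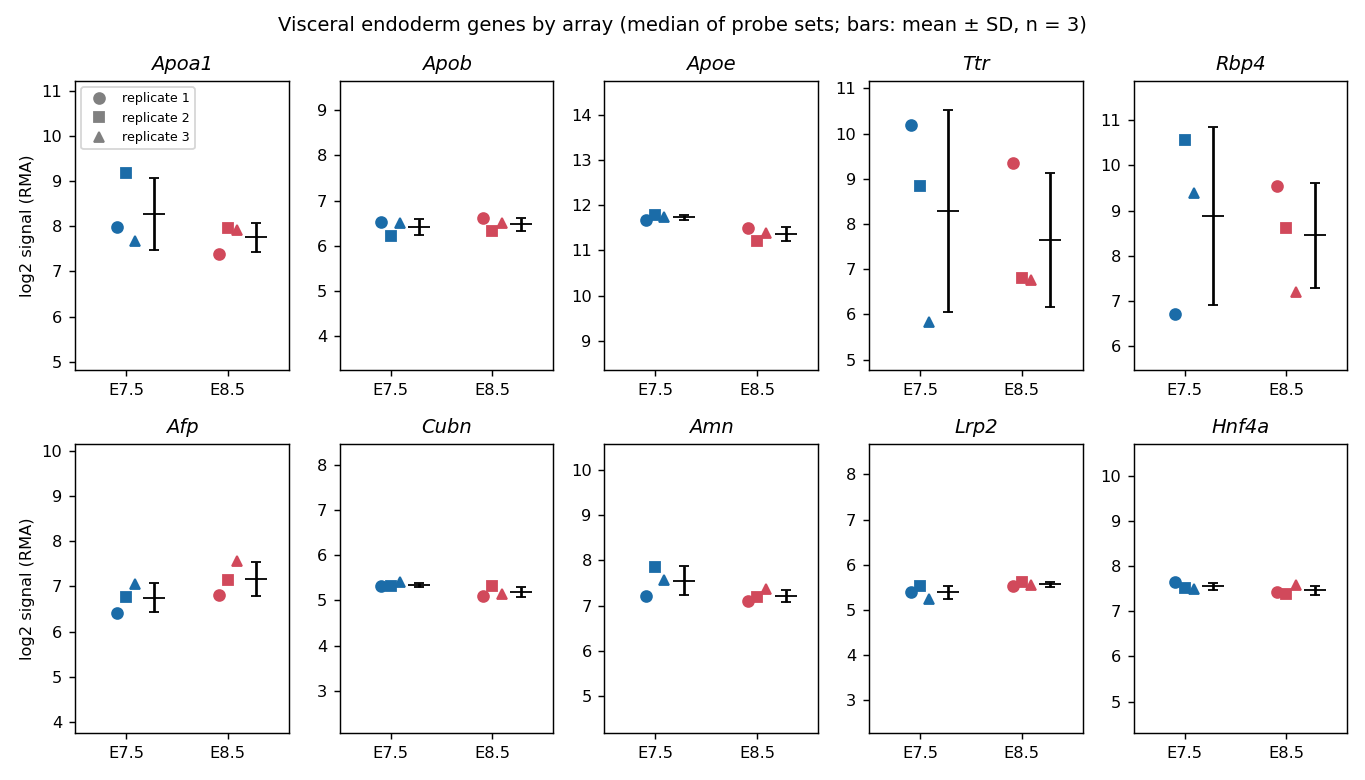
Log2 signal (median of each gene's probe sets) of the 10 genes on the 3 E7.5 arrays (blue) and the 3 E8.5 arrays (red), with symbols for the replicate number and black bars for the mean ± SD (n = 3). Every panel spans the same number of log2 units around its own centre. *Ttr* and *Rbp4* spread over several log2 units within each stage, and *Apoe* is the gene whose stages do not overlap.

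The same held for single probe sets. Of the 72 probe sets, 0 passed an adjusted p of 0.05 in limma, against 64 of all 77669 (0.0824%), and the lowest adjusted p was 0.47. Without adjustment 6 were under 0.05, which is 8.33% of the 72 against 6.99% of all probe sets. The difference of the means was under 2-fold in 68 of the 72, with 44 lower and 28 higher at E8.5. The 3 E8.5 values lay below all 3 E7.5 values in 12 probe sets, against 7.33% of all probe sets, and above them in 2, against 6.59%. Of these 12, 9 belonged to *Apoe*.

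**Figure D2:**
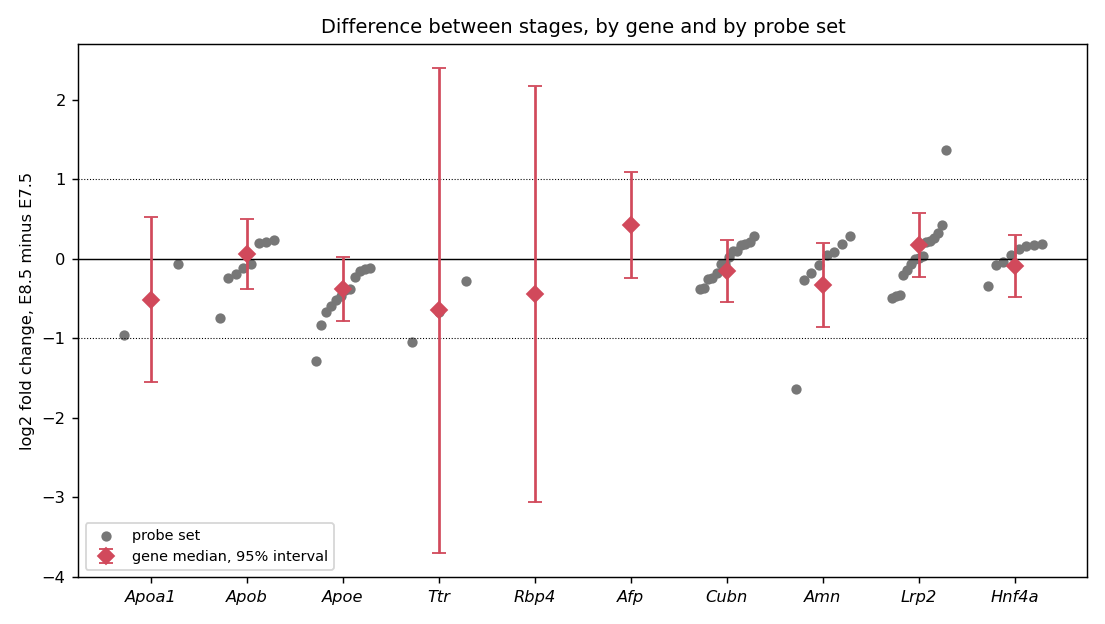
Log2 fold change, E8.5 minus E7.5, for each of the 72 probe sets (grey points) and for the gene median (red diamonds, with the 95% interval from limma), in order of role. Dotted lines mark 2-fold in each direction. All 12 *Apoe* probe sets lie below 0, and the intervals of *Ttr* and *Rbp4* span more than 4 log2 units.

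Among the lipoprotein genes, *Apoe* read lower at E8.5 in all 12 of its probe sets, by a small amount that did not pass the test. It encodes apolipoprotein E, a ligand for lipoprotein receptors that many cell types make. Its gene value was 11.68, 11.79 and 11.74 on E7.5 replicates 1, 2 and 3, and 11.49, 11.20 and 11.39 on E8.5 replicates 1, 2 and 3. All 3 E8.5 arrays were below all 3 E7.5 arrays, a separation with E8.5 lower that 1 of the 10 genes showed, against 7.12% of all genes. The log2 fold change was -0.38 (SE 0.17, limma), with an unadjusted p of 0.062 and an adjusted p of 0.68, so it did not pass.

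*Apoe* had 12 probe sets, which share their gene and their arrays and are not replicates. All 12 were lower at E8.5, by log2 fold changes between -1.28 and -0.12, and in 9 the groups did not overlap. Probe set 5290520 had the lowest of these values, at 11.24, 11.69 and 11.41 at E7.5 and 10.70, 10.10 and 9.69 at E8.5. The E8.5 arrays were all lower, with a log2 fold change of -1.28 (SE 0.32, adjusted p 0.47 in limma). In probe set 5148350, by contrast, E8.5 replicate 2 was the highest array at 7.47, above the E7.5 values of 6.83, 6.70 and 6.49. *Apoe* was lower at E8.5 in all 12 alternative settings tried, with log2 fold changes from -0.48 to -0.16. Most of these settings could not turn the direction. The E8.5 gene values already lay below all E7.5 values, and every probe set was already lower.

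*Apoa1* encodes apolipoprotein A-I, the main protein of high-density lipoprotein, and its 2 probe sets disagreed. Probe set 4515990 measured 6.43, 8.80 and 5.91 at E7.5 and 5.65, 6.56 and 6.04 at E8.5. E7.5 replicate 2 stood above the other 5 arrays by more than 2 log2 units. Probe set 5186558 measured 9.53, 9.54 and 9.42 at E7.5 and 9.13, 9.37 and 9.80 at E8.5, with no array apart. The gene value, their mean, was 7.98, 9.17 and 7.66 at E7.5 and 7.39, 7.96 and 7.92 at E8.5, so the stages overlapped. Its log2 fold change was -0.51 (SE 0.43, adjusted p 0.80 in limma) and became -0.064 without E7.5 replicate 2.

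*Apob* encodes apolipoprotein B, the structural protein that microsomal transfer protein loads with lipid in visceral endoderm. It was flat, with gene values of 6.54, 6.21 and 6.50 at E7.5 and 6.60, 6.32 and 6.50 at E8.5. The stages overlapped, and the log2 fold change of 0.060 (SE 0.18, adjusted p 0.96 in limma) was smaller than the spread between replicates. Its sign was not settled, since the difference was -0.044 without E7.5 replicate 2 and -0.0040 without E8.5 replicate 1. Of its 8 probe sets, 5 were lower and 3 higher at E8.5. Probe set 4848268 was the one whose stages did not overlap, at 4.94, 5.02 and 5.08 at E7.5 and 4.19, 4.44 and 4.18 at E8.5 (log2 fold change -0.74, adjusted p 0.49 in limma). RMA compresses differences of dim probe sets, which bears on values as low as these.

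The carriers *Ttr* and *Rbp4* varied more between replicates than between stages. Transthyretin, encoded by *Ttr*, carries thyroid hormone and binds the retinol carrier encoded by *Rbp4*. *Ttr* measured 10.19, 8.84 and 5.84 on E7.5 replicates 1, 2 and 3, and 9.35, 6.81 and 6.76 on E8.5 replicates 1, 2 and 3. E7.5 replicates 1 and 2 and E8.5 replicate 1 were high and the other 3 arrays low, so high and low arrays occurred at both stages. The highest array exceeded the lowest by 20.4-fold at E7.5 and by 6.03-fold at E8.5. All 3 *Ttr* probe sets were highest on E7.5 replicate 1 and lowest on E7.5 replicate 3.

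For *Ttr* the log2 fold change was -0.65 (SE 1.25, adjusted p 0.93 in limma), with a 95% interval from -3.70 to 2.40. Without E7.5 replicate 1 it turned to 0.30, so no direction can be given.

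*Rbp4*, represented by 1 probe set, measured 6.72, 10.56 and 9.38 at E7.5 and 9.53, 8.60 and 7.21 at E8.5. Here E7.5 replicate 1 was the lowest array, the one on which *Ttr* was highest. The range was 14.4-fold at E7.5 and 5.02-fold at E8.5. The log2 fold change was -0.44 (SE 1.08, adjusted p 0.95 in limma), with a 95% interval from -3.05 to 2.18. It was 0.40 without E7.5 replicate 2 and 0.18 without E8.5 replicate 3, against -1.52 without E7.5 replicate 1.

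**Figure D3:**
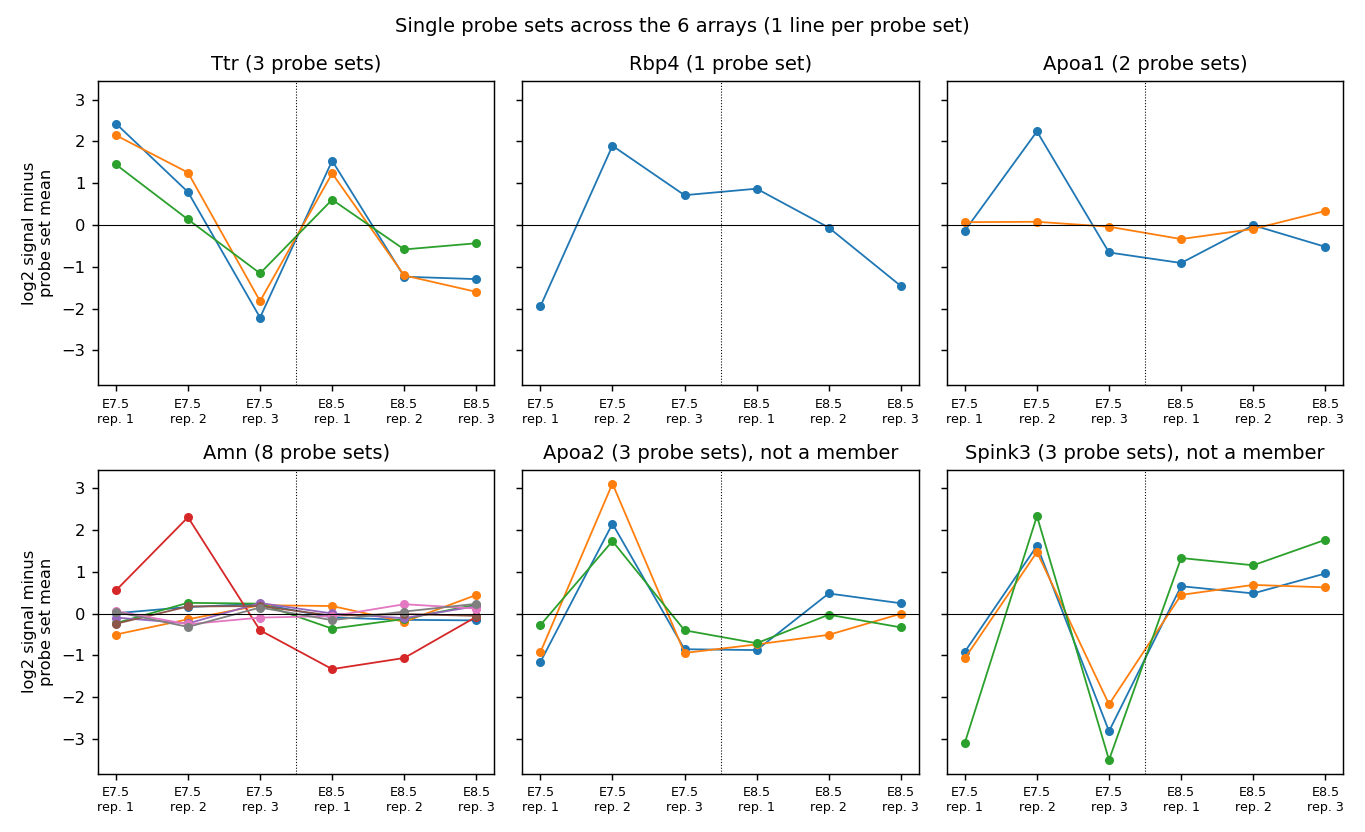
Log2 signal of single probe sets minus the probe set's own mean over the 6 arrays, for *Ttr*, *Rbp4*, *Apoa1* and *Amn* and for 2 genes outside the list, *Apoa2* and *Spink3* (the array's name for *Spink1*); each line is 1 probe set and the dotted line parts E7.5 from E8.5. The 3 *Ttr* lines run together, whereas 1 of 2 *Apoa1* lines and 1 of 8 *Amn* lines (probe set 4808596) rise more than 2 log2 units above their mean on E7.5 replicate 2.

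*Afp* encodes alpha-fetoprotein, the fetal relative of albumin and a standard marker of visceral endoderm. Its 1 probe set measured 6.41, 6.77 and 7.05 at E7.5 and 6.81, 7.13 and 7.56 at E8.5. The stages overlapped, and the highest value was that of E8.5 replicate 3. The log2 fold change was 0.42 (SE 0.27, adjusted p 0.75 in limma), the highest of the 10 genes. It stayed between 0.22 and 0.60 over the 12 alternative settings. With 1 probe set, settings that changed the summary of probe sets could not move it.

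Of the uptake genes, *Cubn* encodes cubilin, which binds intrinsic factor with vitamin B12 as well as apolipoprotein A-I and albumin, and *Amn* encodes amnionless, the membrane partner that brings cubilin to the cell surface. *Lrp2* encodes megalin, the large endocytic receptor that works with them. *Cubn* measured 5.32, 5.31 and 5.40 at E7.5 and 5.10, 5.32 and 5.15 at E8.5. The stages overlapped in E8.5 replicate 2, and the log2 fold change was -0.15 (SE 0.16, adjusted p 0.85 in limma). Its 14 probe sets divided into 7 lower and 7 higher at E8.5, between -0.38 and 0.28.

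*Amn* measured 7.22, 7.86 and 7.56 at E7.5 and 7.11, 7.19 and 7.36 at E8.5. The difference on the log2 scale was -0.33 (SE 0.22, adjusted p 0.76 in limma), and the stages overlapped, since E7.5 replicate 1 lay below E8.5 replicate 3. Of its 8 probe sets, 4 were lower and 4 higher, and the median of their log2 fold changes was -0.012. Probe set 4808596 had the lowest, -1.64 (adjusted p 0.74 in limma), and measured 6.33, 8.09 and 5.38 at E7.5 and 4.45, 4.72 and 5.70 at E8.5. As in probe set 4515990 of *Apoa1*, E7.5 replicate 2 was the highest array.

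*Lrp2* measured 5.39, 5.53 and 5.25 at E7.5 and 5.53, 5.62 and 5.54 at E8.5, and the stages overlapped narrowly. Its log2 fold change was 0.17 (SE 0.16, adjusted p 0.83 in limma). Of 15 probe sets, 7 were lower and 8 higher. Probe set 4461436 stood out from the rest, at 3.26, 4.77 and 4.60 at E7.5 and 6.03, 5.69 and 5.01 at E8.5. All 3 of its E8.5 values were the higher ones, with a log2 fold change of 1.36 (SE 0.50, adjusted p 0.68 in limma), while the other 14 probe sets lay between -0.49 and 0.43.

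*Hnf4a*, whose nuclear receptor drives serum protein and apolipoprotein genes in visceral endoderm and liver, measured 7.64, 7.52 and 7.49 at E7.5 and 7.43, 7.37 and 7.57 at E8.5. The stages overlapped, with E8.5 replicate 3 above E7.5 replicates 2 and 3. The log2 fold change was -0.091 (SE 0.16, adjusted p 0.92 in limma). Of its 8 probe sets, 3 were lower and 5 higher, between -0.34 and 0.19.

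The 10 genes differed widely in how far replicates of a stage lay apart. The SD between replicates, pooled over both stages, had a median of 0.34 log2 units over all genes, and 6 of the 10 were below it. *Cubn* (0.088), *Hnf4a* (0.091), *Lrp2* (0.11) and *Apoe* (0.11) stood at or under percentile 5.31 of all genes. Their values are medians over 14, 8, 15 and 12 probe sets, against 3 per gene at the median, 1 for *Rbp4* and 3 for *Ttr*. Medians over more probe sets can spread less, and the part of this in the ranking was not tested. *Apob* (0.16), *Amn* (0.24), *Afp* (0.35) and *Apoa1* (0.61) stood at percentiles 14.2, 32.5, 51.6 and 76.1. At the other end, *Rbp4* (1.62) and *Ttr* (1.89) stood at percentiles 98.6 and 99.5. Among single probe sets, 8 of the 72 (11.1%) ranged over more than 2 log2 units across the 6 arrays, against 30.8% of all probe sets. These 8 were the 3 of *Ttr*, the 1 of *Rbp4* and 1 each of *Apoa1*, *Amn*, *Apoe* and *Lrp2*. The medians of the arrays lay between 6.98 and 7.07. Amplification from 50 cells can lose transcripts at random, and its part in these ranges was not tested.

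**Figure D4:**
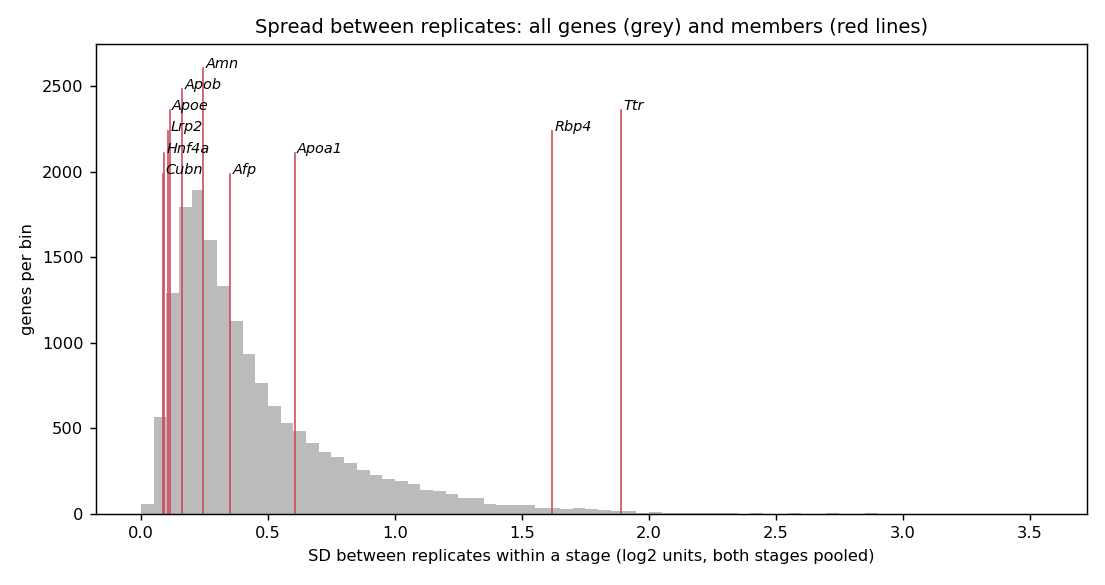
Number of genes (grey bars, y axis) by the SD between replicates within a stage in log2 units (x axis), with each of the 10 genes as a red line; heights of the red lines only separate the names. *Rbp4* and *Ttr* lie in the right tail, and *Cubn*, *Hnf4a*, *Lrp2* and *Apoe* at the left edge.

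No single array was high for the whole group. E7.5 replicate 2 was the highest array for 4 genes (*Apoa1*, *Amn*, *Apoe* and *Rbp4*) and E7.5 replicate 1 for 2 (*Ttr* and *Hnf4a*), and the other 4 arrays were highest for 1 gene each. Averaged over the 10 genes, the level ranged from 7.39 to 7.96 at E7.5 and from 7.30 to 7.63 at E8.5, so the stages overlapped. The genes whose values followed this average, after centring each gene, most closely over the 6 arrays were *Isoc2a*, *Dnajb2* and *Leo1* (Pearson r of 0.99 each) and *6720469N11Rik*, *4930422I07Rik* and *4930449E01Rik* (0.98 each). Those running most opposite were *Syvn1* (-0.99), *1110034B05Rik* (-0.96), *Ddx23*, *Fam134a* and *Rpgrip1l* (-0.94 each) and *Ly6f* (-0.93). These values describe 6 arrays and were picked from 5541 genes. *Ttr* and *Rbp4*, which have the largest deviations of the 10, weigh most in the average.

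Related genes of the same program were read from lists. Genes are named from them where the unadjusted p in limma was under 0.05, as it was for 7.8% of all genes. Of other apolipoproteins and lipoprotein assembly genes, 14 of 16 listed genes were measured, 0 rose and 0 fell at an adjusted p of 0.05 in limma, and the median log2 fold change was -0.096. Of endocytic receptors and adaptors, 14 of 17 were measured and none passed, with a median of 0.085. *Tcn2*, encoding the vitamin B12 carrier transcobalamin, had the one unadjusted p under 0.05 (log2 fold change 1.13, adjusted p 0.63). Of secreted serum proteins, 13 of 14 were measured and none passed, with a median of -0.041. Here *Trf*, encoding transferrin, had the one unadjusted p under 0.05, with values of 6.08, 6.25 and 6.04 at E7.5 and 5.72, 5.37 and 5.60 at E8.5 (-0.56, adjusted p 0.52). All 3 E8.5 arrays were below the E7.5 arrays for *Trf*, as in 7.12% of all genes.

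Retinol handling had 3 of 6 genes measured, and none passed (median 0.76). Of endoderm transcription factors, 18 of 21 were measured and none passed, with a median of 0.16. In that list *Foxa3*, a forkhead factor of endoderm, had a log2 fold change of 0.44 (adjusted p 0.60). *Hhex*, a homeobox gene of anterior endoderm that endothelial and blood progenitors also express, had one of 1.08 (adjusted p 0.56).

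Other visceral endoderm and epithelial markers, 10 of 14 measured, had 0 that passed and a median of -0.087. *Krt8* and *Krt18*, the paired keratins of simple epithelia, had the lowest log2 fold changes of this list. *Krt18* measured 9.75, 9.68 and 10.46 at E7.5 and 7.48, 8.42 and 8.26 at E8.5 (log2 fold change -1.91, adjusted p 0.20 in limma), and *Krt8* had a log2 fold change of -2.05 (adjusted p 0.44). The stages did not overlap for either keratin, although neither passed, and *Krt8* had 1 probe set. Of all genes, 7.12% parted in this way with E8.5 lower. Both keratins were named for a low unadjusted p, so the separation is no separate support. *Dpp4*, a cell surface peptidase, had a log2 fold change of 0.87 (adjusted p 0.50).

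Markers of other cells that such a sort could hold were read in the same way. Again, 7.8% of all genes had an unadjusted p under 0.05 in limma. Of 10 parietal endoderm markers 0 passed (median 0.18), with the lowest p-values for the basement membrane genes *Lamb1* (log2 fold change 1.19, adjusted p 0.17), *Lamc1* (0.90, adjusted p 0.33) and *Nid1* (1.48, adjusted p 0.56), which endothelium also expresses. Trophoblast and extra-embryonic ectoderm markers, 7 of 9 measured, had 0 that passed and a median of 0.052. Of 10 endothelial markers 0 passed, with a median of 0.91, and *Icam2* (1.93, adjusted p 0.062), *Cldn5* (1.92, adjusted p 0.14), *Emcn* (2.58, adjusted p 0.42) and *Tie1* (1.27, adjusted p 0.59) had unadjusted p-values under 0.05. *Kdr*, also in this list, went the other way, with a log2 fold change of -0.73 (adjusted p 0.73 in limma). Of 6 primitive erythroid markers measured from a list of 8, *Hbb-bh1*, an embryonic beta-like globin, fell (log2 fold change -4.87, adjusted p 0.046), and this call was lost on leaving out any 1 of the 6 arrays (adjusted p 0.098 to 0.16, log2 fold change -5.14 to -4.39), with the replicate block (adjusted p 0.31) and with the brightest probe set (log2 fold change -3.53, adjusted p 0.057). *Gata1* had a log2 fold change of -1.86 (adjusted p 0.36).

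Averaged over a list, the endothelial level ran from 7.67 to 8.69 at E7.5 and from 8.83 to 9.28 at E8.5, the parietal endoderm level from 6.90 to 7.22 and from 7.42 to 7.56, and the primitive erythroid level from 7.08 to 7.52 and from 5.94 to 6.11. For these 3 lists the stages did not overlap. Nor did they for the 3 measured retinol genes, from 6.71 to 6.93 and from 6.95 to 7.82. There the stages parted only narrowly, at 6.933 against 6.946. The lipoprotein list ran from 7.32 to 7.42 at E7.5 and from 7.28 to 7.31 at E8.5. Its stages also parted only narrowly, at 7.320 against 7.313. How often list averages part without a difference between stages was not tested. The level of the other visceral endoderm and epithelial markers ran from 6.60 to 6.97 at E7.5 and from 6.58 to 6.74 at E8.5, and that of the trophoblast list from 7.19 to 7.29 and from 7.10 to 7.44, and in both the stages overlapped. The stages overlapped as well for the endocytic, serum protein and endoderm transcription factor lists. No level on this scale can be read as 0. The part of these other cells in any value of the 10 genes was not tested.

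**Figure D5:**
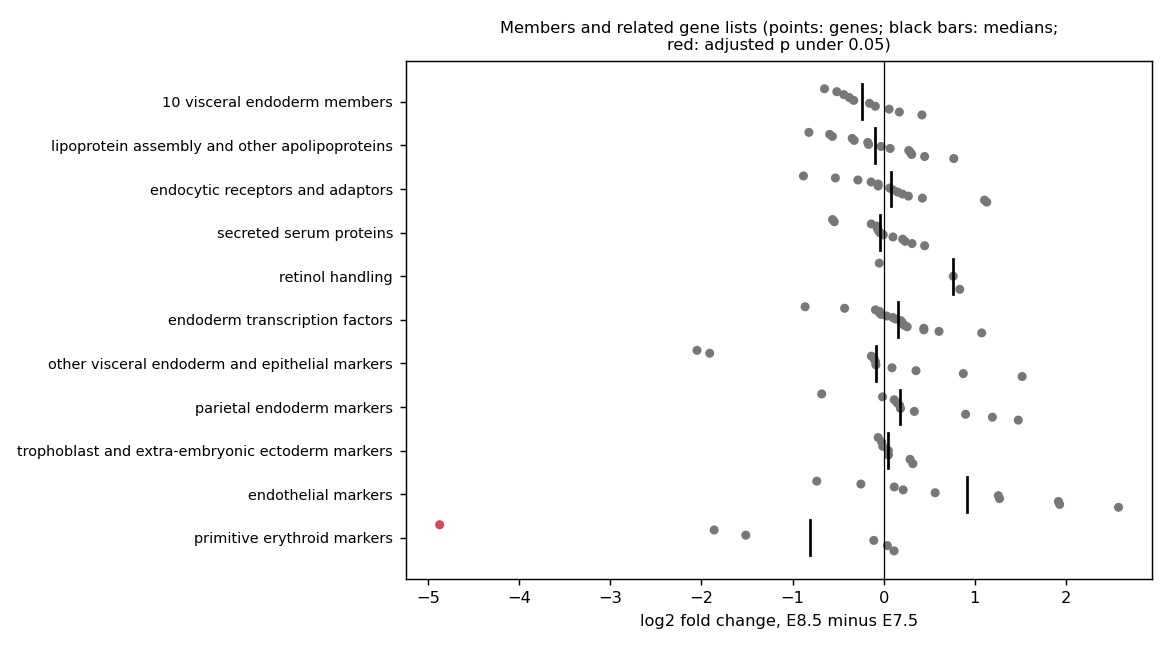
Log2 fold change, E8.5 minus E7.5 (x axis), of each measured gene in the 10 genes and in the related lists (y axis), with black bars at list medians and red for an adjusted p under 0.05. The 10 genes lie between -0.65 and 0.42, and *Hbb-bh1* is the one red point.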

How the data were processed

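The deposited log2 values were made by the authors with RMA (background correction, quantile normalization and probe set summary), and the submitters' processing notes name Affymetrix Power Tools. Which versions were run is not given in the sources used here. RNA of 50 cells per array had been amplified with the SuperAmp kit. Of 90788 probe sets, 77669 had 1 gene symbol in the platform annotation, 654 had several and 12465 had none listed, and only the first were used. The gene value was the median over probe sets (3 per gene at the median). No detection calls were given, so depth and signal over background are unknown.

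Genes and, separately, probe sets were tested with limma (version 3.58.1, under R 4.3.3), using lmFit and eBayes on all 6 arrays with no covariate or filter, with Benjamini-Hochberg adjustment over the whole table and a threshold of 0.05. The code was tested on simulated data first. A gene of the related lists was named where its unadjusted p was under 0.05, and genes of like pattern were the 6 highest and 6 lowest Pearson r among genes with an SD of at least 0.5. The members and the lists were chosen with earlier results of these data known. Listed genes without a probe set of 1 symbol were left out. No level of a gene was set against that of another. The alternatives covered the normalization, the summary of probe sets into genes, a filter on dim genes, a replicate block and leaving out each array. Promoters are RefSeq windows matched by symbol. Single-cell and qPCR data of the study were not analysed here.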

Additional observations from a re-analysis of the deposited data

How the results depend on the processing

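Of the 10 genes and their 72 probe sets, 0 passed an adjusted p of 0.05 in every alternative, and the lowest adjusted p of a gene in any of them was 0.35 (*Apoe*). Of 117 alternative values for the genes, 107 kept direction and side of the threshold and 10 turned the direction. Many of the 107 could not turn. The replicate block and the filter on dim genes returned the same log2 fold change as the main fit. So did the mean and the brightest probe set for *Afp* and *Rbp4*, and the mean for *Apoa1*. With the mean over probe sets *Apob* was -0.089 and *Hnf4a* 0.032, and with the brightest probe set *Amn* was 0.29, *Apob* -0.12 and *Hnf4a* 0.16 (log2 fold changes). Leaving out 1 array gave -1.88 to 0.30 for *Ttr*, -1.52 to 0.40 for *Rbp4* and -0.044 to 0.14 for *Apob*. The filter on dim genes left no value for *Apob*, *Cubn* and *Lrp2*. Over all genes, the count of 18 became 11 with the mean, 9 with the brightest probe set, 0 with the filter on dim genes, 0 with the replicate block and 0 to 12 on leaving out 1 array. The replicate numbers are not said to pair the samples. Deviations of same-numbered arrays showed no shared shift (r from -0.0083 to 0.0074), which cannot tell whether such samples were handled together. The block changed no call of the 10 genes. The causes of these shifts were not tested. With 3 arrays per stage and no measure of signal over background, small changes could have been missed. The intervals are not adjusted for the number of genes tested, so a change whose interval left out 0 could also miss the threshold. *Krt18*, for example, had an interval of the log2 fold change from -2.74 to -1.08 and an adjusted p of 0.20 in limma.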

Other observations

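*Apoa2*, which encodes another protein of high-density lipoprotein, was chosen after its values were seen. It measured 7.76, 10.14 and 7.65 at E7.5 and 7.34, 8.02 and 7.72 at E8.5 (adjusted p 0.81 in limma), and all 3 of its probe sets were highest on E7.5 replicate 2. By contrast *Apoc3*, listed next to *Apoa1* in the RefSeq gene order, lay between 7.85 and 8.26 on the 6 arrays. *Spink1* (*Spink3* on the array), a secreted trypsin inhibitor, was also chosen after its values were seen. It measured 5.68, 8.44 and 4.00 at E7.5 and 7.47, 7.44 and 7.78 at E8.5 (log2 fold change 1.52, SE 1.06, adjusted p 0.77). The E8.5 arrays lay close together and the E7.5 arrays on both sides of them.

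Probe set 5415898 carries 2 symbols, *Apoa1* and *Tcea1*, and was left out of the gene values because it names no single gene. It measured 8.88, 10.59 and 5.51 at E7.5 and 10.39, 5.80 and 5.35 at E8.5. Its 3 highest arrays, E7.5 replicates 1 and 2 and E8.5 replicate 1, were also the 3 highest for *Ttr*. This likeness was picked after the values were seen and was not tested. Neither *Apoa1* probe set of a single symbol had these as its 3 highest arrays.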
